A study of Zeugodacus cucurbitae with 52 samples.

Results

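Second-instar larvae of the melon fly *Zeugodacus cucurbitae*, sampled at 3 d of age, were compared with third-instar larvae sampled at 7 d. The comparison used 8 of the 52 RNA-seq libraries of a developmental series of 13 stages, 4 libraries of each age, and all 18241 genes of the table, of which 17097 passed the filter on low values and were tested. Each library was made from poly(A)-selected RNA of a pool of whole larvae, 20 animals at 3 d and 10 animals at 7 d. The larvae were reared at 26 to 27 °C on an artificial diet of bitter gourd, corn, yeast, flour and sucrose under a light period of 14 h. No treatment or altered gene is named for either age, and the groups differed in age and in instar together, and these cannot be told apart. Whole bodies were pooled, and fewer cells of a type and less RNA per cell cannot be told apart either.

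Fly larvae feed and moult until the third instar, when they stop feeding, leave the food and form a puparium from the larval skin. During the last feeding days the fat body makes storage proteins, the larval serum proteins, which are secreted into the blood and later taken back up as a store of amino acids for building the adult. The epidermis lays down a new cuticle of chitin and many small cuticle proteins at every moult, and makes different proteins early and late within an instar. A pulse of the steroid 20-hydroxyecdysone starts each moult, and the transcription factor Broad commits the last-instar larva of insects with complete metamorphosis to the pupa. These roles are known mainly from *Drosophila melanogaster* and other model insects.

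Values are TPM, transcript abundances that divide reads by transcript length and scale every library to the same total, so a level is a share of the messenger RNA. The table holds no counts, and the depth behind a value is unknown from it. A gene was called higher or lower when the limma test on log2(TPM + 1) gave an adjusted p under 0.05 and a log2 fold change beyond 2 in either direction. The SE and p of a gene rest on its spread over all 52 libraries. They do not measure the spread of the 8 libraries where these pools differ more. The words rose and fell below are used for called genes. A fold change on the log2(TPM + 1) scale understates the change of genes near 1 TPM.

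The 4 pools of 3-d-old larvae were not alike. On the straight line from the mean 1-d-old to the mean 7-d-old profile, the 3-d-old replicates 1, 2, 3 and 4 stood at 0.439, 0.692, 0.200 and 0.659 of the way, and the 7-d-old replicates between 0.978 and 1.03. The correlation of log2 levels within the 3-d-old group went down to 0.881, between replicates 2 and 3, and up to 0.987, between replicates 2 and 4. Among 7-d-old larvae it lay between 0.965 and 0.982. Replicate 3 of the 3-d-old larvae also mapped at the lowest rate of the 8 libraries, and replicates 3 and 4 of the 7-d-old larvae had shorter trimmed reads than the others; the part of either in the results was not tested. Larval cuticle genes summed to 43478 to 67629 TPM at 3 d and 111368 to 126165 TPM at 7 d. They summed to 176 to 273 TPM in 9-d-old males but to 25891 to 30966 TPM in eggs, so they do not mark larvae alone. The photoreceptor opsin Rh1 was at most 1.93 TPM, chorion genes at most 0.26 TPM and protamine genes at most 1.01 TPM in the 8 libraries. Outer dense fiber genes, also sperm markers, summed to 6.85 to 28.5 TPM at 3 d and 15.5 to 19.1 TPM at 7 d, against 1371 to 1605 TPM in 9-d-old males. The vitelline membrane genes summed to 161 to 2684 TPM at 3 d and 230.1 to 265 TPM at 7 d, and the vitellogenin genes to 2.87 to 12.2 TPM at 3 d and 30.9 to 93.8 TPM at 7 d.

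From day 3 to day 7, 232 genes rose and 321 fell, which is 1.36% and 1.88% of the genes tested and 3.23% together. The median log2 fold change of all genes tested was -0.01. The genes that rose made up 4442 to 26152 TPM of the 3-d-old and 203611 to 263775 TPM of the 7-d-old libraries. Those that fell went from 37566 to 203282 TPM at 3 d to 2773 to 6010 TPM at 7 d. The libraries of the 2 ages did not overlap for 208 of the 232 genes that rose (89.7%, against 8.5% of all genes tested) and for 232 of the 321 that fell (72.3%, against 10.8%), values that come from the contrast that chose the genes. A fit on the 8 libraries alone, which estimates the spread from these pools and not from all stages, called 189 of the 232 and 140 of the 321. Of the genes named below it did not call gene12530, gene12529, gene822, gene821, gene819, gene512, gene517, gene12062, gene5669, gene8031, gene8034, gene4783, gene7009, gene7006, gene8611, gene8462, gene8024, gene1382, gene7005, gene7019, gene9894 and gene11933.

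The storage proteins had the largest median change of the 34 lists examined. All 8 members of the list rose, with a median log2 fold change of 7.81, and their summed level went from 274, 165, 14.4 and 110.3 TPM in the 3-d-old replicates 1 to 4 to 85016, 71559, 81584 and 65264 TPM in the 7-d-old replicates. In 1-d-old larvae the sum was 2.71 ± 0.77 TPM (SD, n = 4), and in 1-d-old pupae it was 31110 ± 2030 TPM. The list included fat-body protein 1-like (gene12530) and fat-body protein 1 (gene12529), described below. They averaged 17629 and 9767 TPM in those pupae and made up most of that sum. A larval serum protein 1 beta chain-like gene (gene343) stood at 57.6, 20.9, 2.99 and 19.4 TPM in the 3-d-old replicates 1 to 4 and at 38290.2, 29515, 33763 and 28128 TPM in the 7-d-old replicates. No 3-d-old library came near a 7-d-old one, and the log2 fold change was 10.81 ± 0.42 (SE; limma adjusted p = 9.9e-24). The genes of the same name gene342 and gene341 spanned 2.1 to 91.1 TPM and 2.17 to 98.1 TPM at 3 d, against 17310.1 to 23408 TPM and 7752 to 10229 TPM at 7 d. The least abundant of them, gene890, was at 0.05 to 2.28 TPM at 3 d and 22.1 to 39.4 TPM at 7 d. Larval serum protein 2 (gene6969) measured 15.2, 1.68, 5.44 and 2.75 TPM at 3 d and 11893, 11933, 13179 and 10279 TPM at 7 d, a difference of 11.02 ± 0.40 (SE; limma adjusted p = 1.5e-24). An arylphorin (gene2478), a storage hexamer rich in aromatic amino acids, stood at 10.2, 61.4, 0.7 and 52.2 TPM at 3 d, lowest in replicate 3, and at 1992, 1840.5, 1794 and 1754 TPM at 7 d. Whether reads were shared between the genes of the same name was not tested.

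The 7-d-old pools were nearly equal for the serum proteins but not for fat-body protein 1, the receptor through which the fat body of flies takes storage proteins back up. Fat-body protein 1-like (gene12530) stood at 0.67, 0.66, 0.63 and 0.66 TPM in the 3-d-old replicates and at 0.77, 727, 372 and 12.8 TPM in the 7-d-old replicates 1 to 4, so that replicate 1 was barely above the younger larvae and replicates 2 and 3 far above them. Its log2 fold change was 4.94 ± 0.86 (SE; limma adjusted p = 1.1e-05), with the spread taken over all 52 libraries and not from these pools. Fat-body protein 1 (gene12529) was at 0.12 to 0.42 TPM at 3 d and at 0.04, 251, 2.08 and 5.53 TPM at 7 d. Its groups overlapped, and its call was lost without replicate 2 of the 7-d-old larvae. Both were far higher in 1-d-old pupae, at 17629 ± 1872 and 9767 ± 463 TPM (SD, n = 4), whereas gene343 stood at 684 ± 134 TPM there.

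**Figure D1:**
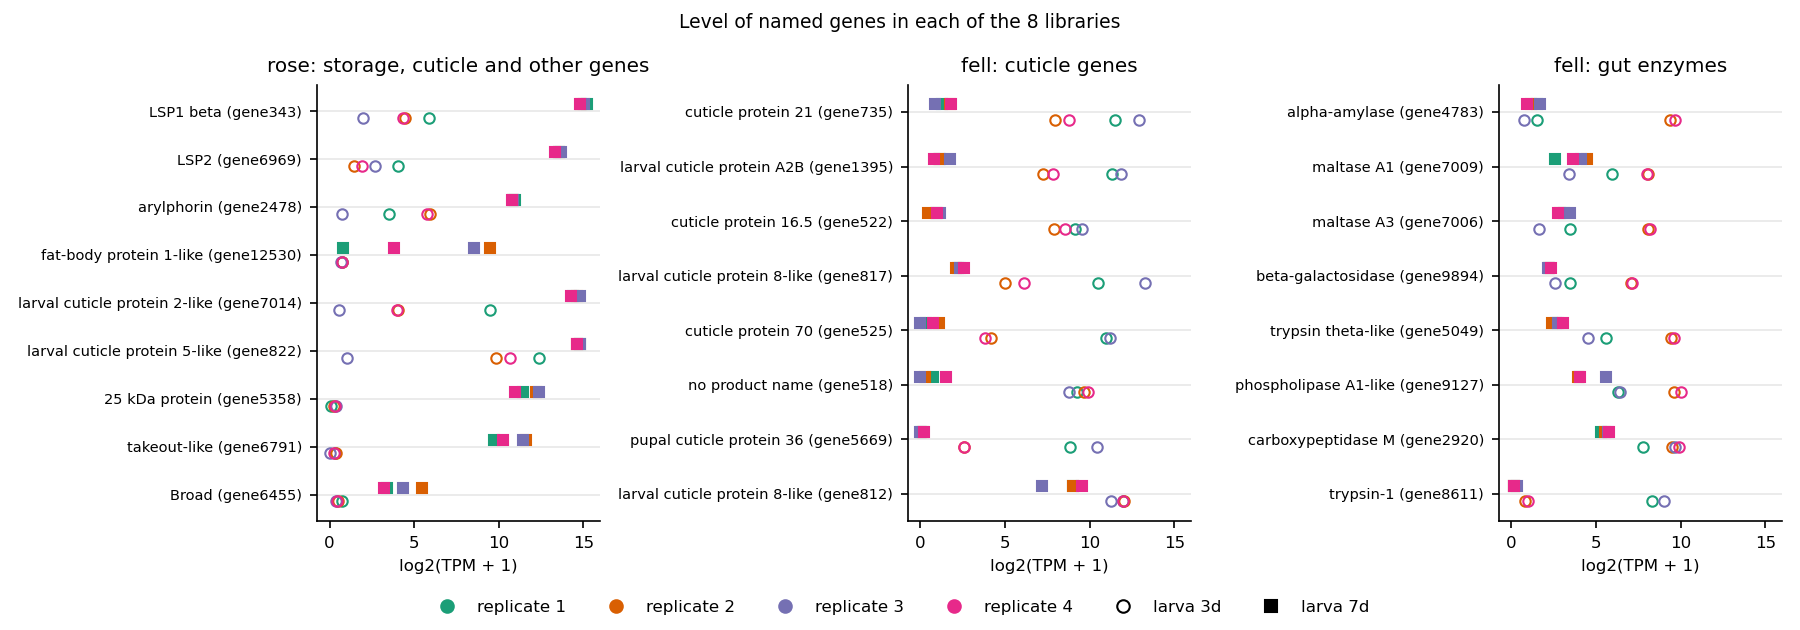
Level of named genes as log2(TPM + 1) in each of the 8 libraries, open circles for 3-d-old and filled squares for 7-d-old larvae, with colour marking the replicate number. Serum proteins sit together at 7 d. Most of the genes shown with the cuticle genes that fell are highest in 3-d-old replicates 1 and 3, but not gene518 and gene812. Most of the gut enzymes shown are high in 3-d-old replicates 2 and 4.

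Other genes with the largest rises included a development-specific 25 kDa protein (gene5358), at 0.05, 0.19, 0.31 and 0.26 TPM at 3 d and 2783, 4775, 5384 and 1995 TPM at 7 d. This was the largest log2 fold change among named genes with a product, at 11.49 ± 0.41 (SE; limma adjusted p = 1.0e-24). A takeout-like gene (gene6791), of a family of secreted proteins that bind small lipids such as juvenile hormone, stood at 0 to 0.3 TPM in 3-d-old larvae and at 837, 3164, 2735 and 1240.0 TPM in the 7-d-old replicates 1 to 4. Another family member, takeout (gene6006), fell from 9.45, 3.94, 19.6 and 6.25 to 0.17, 0.11, 0.08 and 0.29 TPM. A kelch-like diablo gene (gene345), 2 genes away from gene343 in the numbering of the table, was at 10.03 to 34.5 TPM at 3 d and at 2707 to 7682 TPM at 7 d. A protease inhibitor-like gene (gene4573) was at 45.97 to 104 TPM at 3 d and 2432 to 4938 TPM at 7 d, with a log2 fold change of 5.57 ± 0.28 (SE; limma adjusted p = 1.3e-19). Of 48 protease inhibitors tested 4 rose and 2 fell (8.33% and 4.17%, against 1.36% and 1.88% of all genes tested), with a median of 0.12. The most abundant of those that fell, chymotrypsin inhibitor-like gene12860, was at 814, 741, 612 and 909 TPM at 3 d and 188, 104, 59.7 and 310.2 TPM at 7 d. The uncharacterized genes gene1157, gene1155 and gene7015 were at most 13.7 TPM in every 3-d-old library and between 438 and 2170.3 TPM in every 7-d-old one.

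Cuticle genes moved in both directions in the larval list and mainly down in the pupal and other lists. Of 40 larval cuticle proteins tested, 9 rose and 22 fell, of 30 pupal cuticle proteins 1 rose and 18 fell, and of 83 other cuticle proteins 1 rose and 38 fell, with medians of -2.36, -2.75 and -1.40. In the fit on the 8 libraries alone 5 larval and 1 other cuticle protein rose, the pupal one was not called, and 13, 5 and 18 members fell. That fit called 189 higher and 140 lower of all 12649 genes it tested. The names come from proteins of other insects and do not state when the gene is used in this fly. The summed level of larval cuticle proteins nevertheless went up, from 67629, 43478, 52082 and 45665 TPM in the 3-d-old replicates to 122821, 113032, 126165 and 111368 TPM in the 7-d-old replicates. Of the members that rose, gene7014, gene822, gene825 and gene7013 each held over 9663 TPM in every 7-d-old library. The member gene823, not called, averaged 9823 TPM at 3 d and 22732 TPM at 7 d. The pupal cuticle proteins summed to 10656, 3318, 12827 and 3047 TPM at 3 d and to 911 to 1254 TPM at 7 d, and to 444 ± 36.1 TPM (SD, n = 4) in 1-d-old pupae.

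Larval cuticle protein 2-like and 5-like genes were among the members that rose. Larval cuticle protein 2-like (gene7014) measured 701, 15.8, 0.45 and 14.7 TPM in the 3-d-old replicates 1 to 4 and 21224, 25275, 28377 and 19292 TPM in the 7-d-old replicates. Replicate 1 was the highest of the 3-d-old pools and replicate 3 the lowest, and the log2 fold change was 10.00 ± 0.80 (SE; limma adjusted p = 2.0e-13). The SE and p of gene7014 use the spread over all 52 libraries and not that of these unequal pools. The neighbours gene7013 and gene7012 spanned 0.46 to 315 TPM and 64.7 to 304 TPM at 3 d, against 9663 to 13896 TPM and 1519.7 to 2743 TPM at 7 d. Larval cuticle protein 5-like (gene822) stood at 5218, 898, 1.07 and 1618 TPM at 3 d and at 28807, 25077, 28490.1 and 25409 TPM at 7 d, again lowest in replicate 3 of the younger larvae. In 1-d-old larvae gene7014 was at 0.21 ± 0.0898 TPM and gene822 at 2.88 ± 1.99 TPM, and in 1-d-old pupae at 18.4 ± 11.8 and 41.2 ± 27.3 TPM (SD, n = 4). Larval cuticle protein LCP-17 (gene9507), which also rose and was chosen after its values were seen, averaged 314.4 TPM in 1-d-old and 152 TPM in 3-d-old larvae. An endocuticle structural glycoprotein (gene813) was at 77.1 to 114 TPM at 3 d and 621 to 1272 TPM at 7 d. It rose, as did pupal cuticle protein Edg-78E (gene12062), from 56.3, 135, 0 and 96.1 TPM to 180.4, 445, 291 and 188 TPM. The calls of gene12062 and of a larval cuticle protein 8-like gene (gene825) were lost when replicate 3 of the 3-d-old larvae was left out.

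The most abundant cuticle gene of the younger larvae was not called. Cuticular protein 47Eg-like (gene9500) measured 19619.6, 32159, 5375 and 28746 TPM at 3 d and 29549, 22316, 25628 and 28762 TPM at 7 d, and the groups overlapped, with a log2 fold change of 0.58 ± 0.35 (SE). A neighbour of gene822, larval cuticle protein 8-like gene823, stood at 9946, 12817, 3008 and 13523 TPM at 3 d and 23810.3, 21261, 24636 and 21221 TPM at 7 d. Its groups did not overlap, and its log2 fold change of 1.42 ± 0.43 (SE) was below the size set for a call. The next but one gene, larval cuticle protein 8-like gene826, was not called either, at 719.8 to 4112 TPM at 3 d and 413 to 863 TPM at 7 d.

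Many of the cuticle genes that fell were nearly silent at 7 d, and in the 3-d-old group their level depended on the pool. Cuticle protein 21 (gene735) measured 2886, 242, 7647 and 437 TPM in the 3-d-old replicates 1 to 4 and 1.37, 2.4, 0.81 and 2.45 TPM in the 7-d-old replicates, a log2 fold change of -8.86 ± 0.53 (SE; limma adjusted p = 4.0e-17). Its SE and p use the spread over all 52 libraries and not that of these split pools. In 1-d-old larvae gene735 stood at 4264 ± 1406 TPM (SD, n = 4). Larval cuticle protein A2B (gene1395) was at 2538, 148, 3711 and 226 TPM at 3 d and at 0.77 to 2.29 TPM at 7 d. In both genes the 3-d-old replicates 2 and 4 were well below replicates 1 and 3, yet far above the 7-d-old larvae. A larval cuticle protein 8-like gene (gene817) spread further, over 1411, 31.1, 9647 and 67.6 TPM, against 3.29 to 4.94 TPM at 7 d. Cuticle protein 70 (gene525) was at 1991, 16.8, 2386 and 13.3 TPM at 3 d and 0 to 1.11 TPM at 7 d, and pupal cuticle protein 36 (gene5669) at 456, 5.06, 1401 and 5.03 TPM and 0 to 0.14 TPM. The spidroin-1-like gene1382, named for a spider silk protein, had a wider split, with 5109, 5.4, 8144 and 8.93 TPM at 3 d and 0.35, 0.19, 0.38 and 0.7 TPM at 7 d.

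Pupal cuticle protein G1A-like (gene512) and cuticle protein 38-like (gene517) reached 647, 2.19, 915 and 0.85 TPM and 444, 0.58, 536 and 2.34 TPM at 3 d and were listed at 0 TPM in all 7-d-old libraries. Cuticle protein 16.5 isoform B-like (gene8031) and pupal cuticle protein C1B-like (gene8034) had the same split, with 2800.1, 26.5, 3405 and 49.3 TPM and 2840.5, 23.1, 3063 and 36.1 TPM at 3 d. At 7 d they were still at 10.1 to 31.7 TPM and 8.21 to 30.6 TPM, within or close to the levels of 3-d-old replicates 2 and 4.

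Some cuticle genes fell from a level that all 4 younger pools shared. Cuticle protein 16.5 isoform B-like (gene522) was at 563, 232, 737 and 375 TPM at 3 d and at 0.89, 0.38, 1.19 and 0.94 TPM at 7 d, a log2 fold change of -7.90 ± 0.37 (SE; limma adjusted p = 1.1e-20). The uncharacterized gene518, of the same run of genes, measured 596, 802, 440.1 and 947 TPM at 3 d and 0 to 1.87 TPM at 7 d. A larval cuticle protein 8-like gene (gene812) went from 3923, 4136, 2489 and 3991 TPM to 514, 505, 144 and 732 TPM.

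Over the whole set, the 3-d-old replicates 1 and 3 both exceeded replicates 2 and 4 for 237 of the 321 genes that fell (73.8%), against 3870 of all 17097 genes tested (22.6%). They did so by more than 10 times for 142 genes (44.2%, against 1.95%). Replicates 2 and 4 were above replicates 1 and 3 for 49 genes (15.3%, against 28.03%). The median log2(TPM + 1) of the 321 genes was 6.40, 2.70, 7.09 and 3.22 in the 3-d-old replicates 1 to 4 and 0.71 to 0.96 in the 7-d-old replicates. In replicates 2 and 4, 269 and 270 of the genes were higher than in every 7-d-old library, and in replicates 1 and 3 it was 319 and 304. These counts come from the contrast that chose the genes and are no separate test of the fall. With replicates 2 and 4 as the only 3-d-old pools 231 genes fell, 137 of them among the 321, and with replicates 1 and 3 as the only ones 455 fell, 290 of them among the 321. Of the larval, pupal and other cuticle proteins 14, 7 and 19 fell with replicates 2 and 4 alone, and the medians were -1.28, -1.30 and -0.59.

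**Figure D2:**
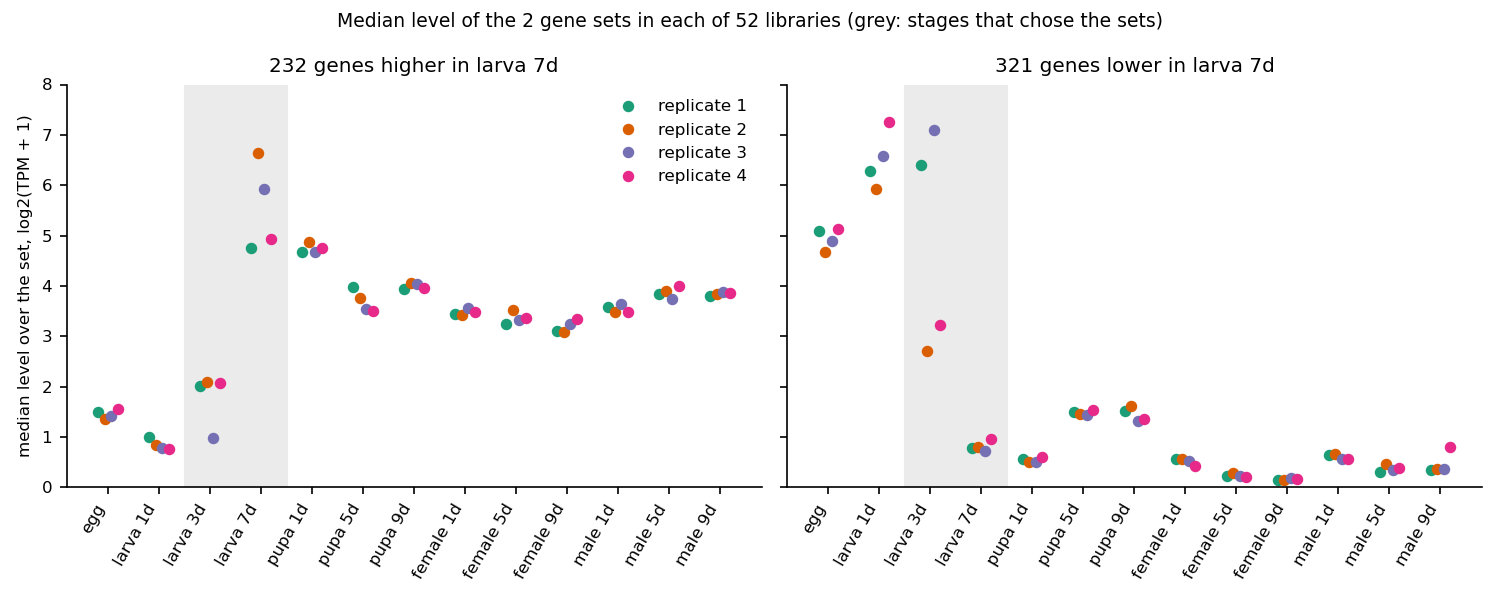
Median log2(TPM + 1) of the 232 genes that rose (left) and the 321 that fell (right) in each of the 52 libraries, by stage, with colour marking the replicate number and grey marking the stages whose contrast chose the genes. Outside the grey band the genes that fell are high in eggs and 1-d-old larvae and low from the pupa on, and the genes that rose are highest in 1-d-old pupae.

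Genes called in this comparison lay next to each other more often than genes in general. Of the 321 genes that fell, 255 could be placed in the order of genes in the RefSeq annotation of the assembly idZeuCucr1.2, and 108 of these (42.4%) had another gene of the set as an immediate neighbour, against 3.07% of all 10927 genes placed. Of the 174 placed genes that rose it was 36 (20.7%), against 2.29%. In all, 10 runs held 5 or more called genes with at most 2 other genes between successive ones, and 96 of the 429 placed called genes were in them. The build of the deposited table is not stated, so the order was used without coordinates. Cuticle genes are known to stand in tandem arrays in insects, and reads were kept by the authors only when they matched the genome at 1 place. The effect of this on the values of similar copies was not tested.

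One run of 18 genes held larval cuticle protein 5, larval cuticle protein 8 and related genes from gene828 to gene811, of which 17 were measured, 4 rose and 8 fell. In its middle gene825, gene822 and gene821 rose next to gene823, and on both sides of them gene828, gene827, gene820, gene819, gene817, gene814, gene812 and gene811 fell, with gene813 rising between the last of them. The fall of gene827 was from 963, 31.2, 1266 and 39.2 TPM to 7.61, 4.79, 3.15 and 6.14 TPM, and that of gene811 from 1114, 213, 1961 and 278 TPM to 14.2, 14.03, 0.75 and 22.97 TPM. The members that rose were at most 8.86 TPM in 1-d-old larvae on average, except gene813, whereas gene828, gene819 and gene817 averaged 2071, 1752 and 3876 TPM there. A run of 14 genes from gene7019 to gene7005 held the larval cuticle protein 2 genes that rose in its centre, with the uncharacterized gene7015 and gene7010 that rose beside them, and maltases that fell at either end. The maltases gene7008 and gene7007 of this run were not called. In a further run, from gene1402 to gene1393, all 10 measured genes were larval cuticle protein A2B or A3A genes, and all 10 fell. Within it gene1397 kept the most transcripts, with 728, 699, 750.5 and 705 TPM at 3 d and 181, 146, 211 and 163 TPM at 7 d, and its call was lost without replicate 2 of the 7-d-old larvae. A run of 20 genes, from gene525 to gene510, held 13 genes that fell and none that rose, 12 of them named cuticle proteins. Its members gene520 and gene514 had 1069, 12.5, 1159.9 and 37.97 TPM and 1270.0, 19.6, 1951 and 23.2 TPM at 3 d and at most 1.14 TPM at 7 d. The runs from gene7999 to gene8014 and from gene8018 to gene8026 held 14 and 9 called genes, all of which fell. They included calphotin (gene8024), at 1070.3, 2.02, 2089.7 and 2.02 TPM at 3 d and 0 to 0.37 TPM at 7 d, and 8 genes named A-kinase anchor protein 14-like or protein app1-like after proteins of other animals. One of these, gene8009, was at 70.5, 4.74, 98.6 and 10.9 TPM at 3 d and 0 to 0.86 TPM at 7 d.

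**Figure D3:**
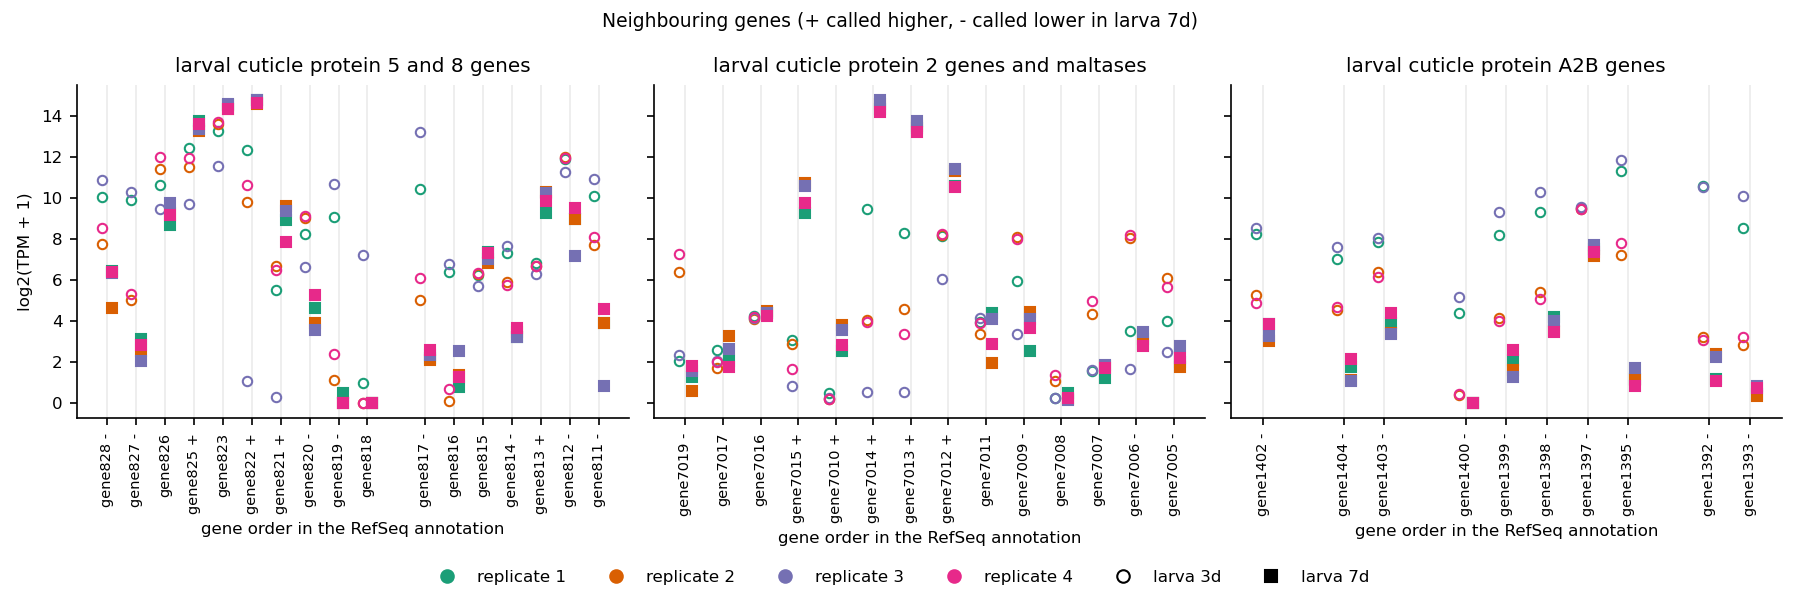
Level as log2(TPM + 1) of the genes of 3 runs in RefSeq order, open circles for 3-d-old and filled squares for 7-d-old larvae, with colour marking the replicate number and + or - marking genes called higher or lower. In the left and middle runs genes that rose stand between genes that fell, and in the right run all 10 fell.

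Several glycosidases and lipases were high in the other pair of 3-d-old pools, replicates 2 and 4. Of 56 glycosidases and lipases tested 1 rose and 7 fell (1.79% and 12.5%, against 1.36% and 1.88% of all genes tested), with a median log2 fold change of -0.36. Their summed level was 865, 4627, 1078 and 5182 TPM in the 3-d-old replicates 1 to 4 and 726 to 982 TPM at 7 d. Alpha-amylase 4N-like (gene4783), which digests starch, measured 1.89, 664, 0.67 and 823 TPM at 3 d and 1.82, 1.25, 2.22 and 0.9 TPM at 7 d, so that replicates 1 and 3 lay within or close to the range of the 7-d-old larvae. The log2 fold change was -4.01 ± 0.98 (SE; limma adjusted p = 0.0012). This SE and p use the spread over all 52 libraries and not that of these split pools, and the fit on the 8 libraries did not call the gene. Maltase A1 (gene7009), which splits maltose and sucrose, was at 60.2, 270.3, 9.39 and 258 TPM at 3 d and at 4.84, 20.8, 15.96 and 11.6 TPM at 7 d. Maltase A3 (gene7006) was at 10.2, 269, 2.12 and 290.4 TPM and 7.7, 6.4, 10.2 and 5.8 TPM, and its call was lost when replicate 2 or 4 of the 3-d-old larvae, or replicate 2 or 4 of the 7-d-old larvae, was left out. Maltase A2-like (gene7005) and maltase A3-like (gene7019) had 15.2, 67.9, 4.62 and 48.9 TPM and 3.16, 84.02, 4.07 and 156 TPM at 3 d and at most 5.98 TPM at 7 d, and the call of gene7005 was lost without replicate 2 of the 3-d-old larvae. Beta-galactosidase (gene9894) and a phospholipase A1-like gene (gene9127) were also high in replicates 2 and 4, at 9.8, 132, 4.99 and 139.8 TPM and 77.7, 794, 84.8 and 1039 TPM. The single member that rose was lipase 3 (gene9567), at 6.88, 3.56, 3.04 and 5.22 TPM at 3 d and 23.1, 22.2, 25.2 and 14.8 TPM at 7 d, a log2 fold change of 2.00 ± 0.15 (SE), and its call was lost without replicate 2 or 3 of the 3-d-old larvae or replicate 1, 2 or 3 of the 7-d-old larvae. Without replicate 1 of the 3-d-old larvae 12 members fell. With replicates 2 and 4 as the only 3-d-old pools 15 fell, with replicates 1 and 3 alone 3 fell, and in the fit on the 8 libraries 1 fell.

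Of 145 digestive proteases tested 6 rose and 5 fell, shares of 4.14% and 3.45% against 1.36% and 1.88% of all genes tested. Their summed level was 25715, 45104, 44108 and 44738 TPM in the 3-d-old replicates 1 to 4 and 31499, 21787, 29223 and 30091 TPM in the 7-d-old replicates, so that the groups overlapped and replicate 1 was the lowest of the younger pools. Serine proteases 1/2-like (gene752) rose from 459, 538, 53.4 and 165 TPM to 1554, 1193, 1472 and 1599 TPM. Cathepsin L1 (gene9382), a lysosomal and gut protease, rose from 133, 126, 102 and 118 TPM to 685, 879.7, 872 and 739.9 TPM, with a log2 fold change of 2.72 ± 0.14 (SE; limma adjusted p = 6.1e-20) and little spread at either age. Trypsin alpha-like (gene10227) rose from 11.1, 16.01, 15.2 and 12.2 TPM to 50.3, 137, 118 and 51.2 TPM. Trypsin theta-like (gene5049) fell from 48.01, 688, 21.7 and 765 TPM to 5.26, 4.34, 5.8 and 7.35 TPM and was high in the same pools as amylase, whereas trypsin-1 (gene8611), at 312, 0.74, 525 and 0.98 TPM and then 0.09 to 0.26 TPM, was high in the other pair. Carboxypeptidase M (gene2920) fell from 219, 712, 812 and 961 TPM to 38.1, 45.3, 51.7 and 52.6 TPM. The number of proteases that fell was 9 without replicate 1 or replicate 2 of the 3-d-old larvae, 18 with replicates 1 and 3 alone, and 2 in the fit on the 8 libraries.

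The lysozymes, which digest bacteria in the gut of fly larvae, were among the most abundant messengers of 3-d-old larvae. Together with peptidoglycan recognition proteins they summed to 38081, 74182, 80503 and 63026 TPM at 3 d and to 28976, 17221, 23109 and 32343 TPM at 7 d, without overlap. Of the 28 members 1 was called, as lower (3.57%, against 1.88% of all genes tested). That member, lysozyme B-like gene5007, fell from 1151, 1399.9, 3523 and 1729 TPM to 465, 333, 399 and 494 TPM, with a log2 fold change of -2.08 ± 0.49 (SE; limma adjusted p = 8.4e-04). Its call was lost without replicate 3 of the 3-d-old larvae or replicate 2 of the 7-d-old larvae. The more abundant gene5004 measured 6403, 17869, 16464 and 16553 TPM at 3 d and 3840.4, 2393, 3655 and 5341 TPM at 7 d, and gene5011 11275, 15312, 13019.7 and 13193 TPM and 8689, 5700.2, 6617 and 7252 TPM. Both had log2 fold changes below the size set for a call, -1.86 ± 0.58 and -0.91 ± 0.32 (SE). Of 24 antimicrobial peptides 2 rose (8.33%, against 1.36% of all genes tested). Attacin-A-like (gene5684) went from 1.71, 0.07, 0.23 and 0 TPM to 12.7, 29.5, 7.27 and 26.1 TPM, and attacin-B-like (gene4074) from 1.12, 0.56, 0.69 and 0.93 TPM to 8.67, 28.4, 4.35 and 32.6 TPM. The call of gene4074 was lost without replicate 2 of the 3-d-old larvae or without replicate 2 or 4 of the 7-d-old larvae.

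Every one of the 77 cytosolic ribosomal protein genes was lower at 7 d, and for each the 4 libraries of one age did not overlap with those of the other, against 10.8% of all genes tested. None reached the fold change set for a call, the log2 fold changes ran from -1.70 to -0.44 with a median of -0.67, and all 77 had a limma adjusted p under 0.05, as did 4810 of all genes tested, 2821 of which were below 0. Their summed level was 192487, 203997, 192854 and 208207 TPM in the 3-d-old replicates and 129298, 121096, 118669 and 134164 TPM in the 7-d-old replicates, a ratio of 0.631. It had been 291050 ± 12716 TPM (SD, n = 4) in 1-d-old larvae and was 156409 ± 5569 TPM in 1-d-old pupae. TPM are shares, and the genes that rose took at least 203611 TPM in every 7-d-old library. Rescaled so that the genes not called had the same total in every library, the ribosomal proteins summed to 216368 to 243419 at 3 d and 161795 to 170927 at 7 d. With median-of-ratios scaling the median was -0.65, and all 77 remained below 0. Among the mitochondrial oxidative phosphorylation genes the median of 75 members was -0.18 and none was called. By limma 41 of them had an unadjusted p under 0.05, and 33 below 0 and 3 above 0 had an adjusted p under 0.05. In 26 of the 75 every 7-d-old library was below every 3-d-old one, against 10.8% of all genes tested. None of 101 genes of DNA replication and the cell cycle rose and 1 fell (0.99%, against 1.88% of all genes tested), with 8 members above 0 and 18 below 0 at an unadjusted limma p under 0.05. The gene that fell was a probable cyclin-dependent kinase (gene6709), at 30.8, 3.59, 71.2 and 4.18 TPM at 3 d and 0.42, 0.52, 0.19 and 0.39 TPM at 7 d.

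**Figure D4:**
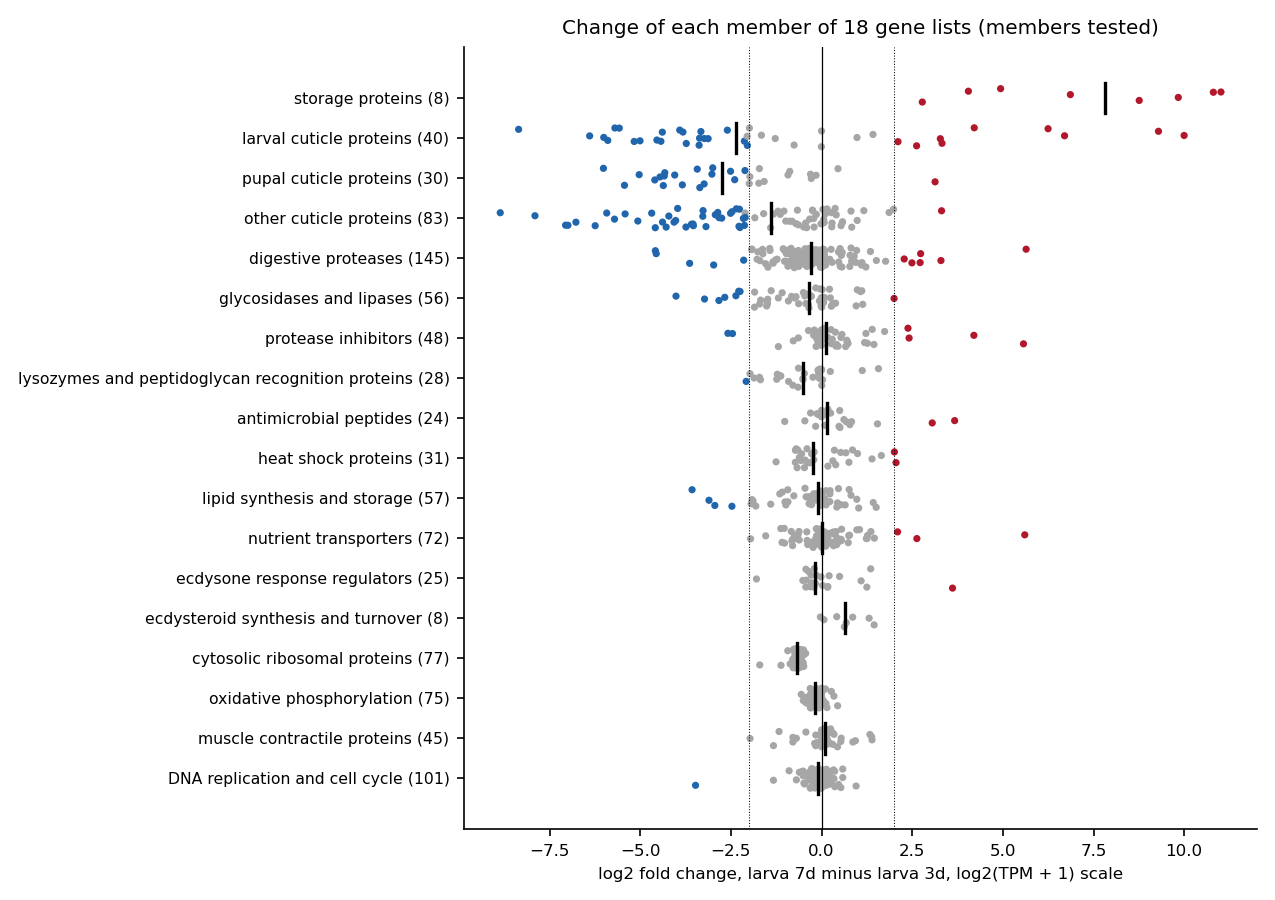
Log2 fold change from 3-d-old to 7-d-old larvae of every tested member of 18 gene lists, red for genes called higher, blue for genes called lower, grey for the rest, with a black bar at the median of each list and the number tested in parentheses. Storage proteins lie on the right, the cuticle lists spread over both sides, and all 77 ribosomal proteins lie left of 0 within a narrow band.

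At an unadjusted limma p under 0.05, 5 of 25 ecdysone response regulators stood above 0 and 8 below, against 5907 of all 17097 genes tested in either direction. Of the 25, 1 rose (4.00%, against 1.36% of all genes tested) and none fell, and the median was -0.18. That gene encodes Broad (gene6455), and it measured 0.66, 0.43, 0.28 and 0.34 TPM in the 3-d-old replicates 1 to 4 and 9.62, 43.2, 19.4 and 8.49 TPM in the 7-d-old replicates, highest in replicates 2 and 3. The log2 fold change was 3.61 ± 0.22 (SE; limma adjusted p = 9.2e-17), and the level reached 104 ± 9.16 TPM (SD, n = 4) in 1-d-old pupae. The next gene of the table, Broad isoform 6-like gene6456, had the same order of 7-d-old pools, with 0.09, 0.09, 0.01 and 0.13 TPM at 3 d and 0.44, 4.29, 1.72 and 0.35 TPM at 7 d, and was not called. Ecdysone-induced protein 75B (gene0), an early target of the hormone, stood at 2.24, 3.1, 2.33 and 2.99 TPM and 6.59, 15.7, 7.73 and 5.82 TPM without overlap, with a log2 fold change of 1.36 ± 0.20 (SE). Nuclear receptor FTZ-F1 (gene1101), which in flies is made as the hormone declines, was at 6.54, 2.08, 10.3 and 2.33 TPM at 3 d and 0.48, 0.62, 0.58 and 0.6 TPM at 7 d, a log2 fold change of -1.79 ± 0.22 (SE). FTZ-F1 was high in the same 3-d-old pools as most of the cuticle genes that fell. Ecdysone-induced protein 74EF (gene5308) had that order too at 3 d, with 9.71, 2.94, 12.03 and 2.58 TPM, and was at 10.1, 24.8, 18.1 and 10.5 TPM at 7 d. The ecdysone receptor (gene4707) was at 11.2, 6.22, 6.3 and 6.16 TPM at 3 d and 7.77, 13.8, 12.8 and 9.22 TPM at 7 d.

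None of the 8 genes of ecdysteroid synthesis and turnover was called, against 3.23% of all genes tested. A limma adjusted p under 0.05 was found for 5 of the 8, all with values above 0. It was found for 4810 of all 17097 genes tested, 1989 of them above 0. Ecdysone 20-monooxygenase (gene117), which makes the active hormone, measured 6.84, 10.8, 1.27 and 10.4 TPM at 3 d and 20.1, 20.2, 19.5 and 13.6 TPM at 7 d, and its log2 fold change was 1.45 ± 0.27 (SE). Cytochrome P450 306a1 (gene5569) stood at 1.85, 0.78, 0.42 and 0.8 TPM and 3.32, 4.34, 3.35 and 3.91 TPM, and 302a1 (gene4259) at 3.54, 5.1, 2.46 and 4.76 TPM and 5.91, 9.38, 8.74 and 7.54 TPM, both enzymes of ecdysone synthesis and both without overlap between the ages. Of 5 juvenile hormone genes none was called. At an unadjusted limma p under 0.05, 3 of them stood above 0 and none below, against 5907 of all 17097 genes tested in either direction. Krüppel homolog 1 (gene12603), a target of juvenile hormone, was at 3.48, 4.05, 1.75 and 5.11 TPM at 3 d and 4.4, 9.21, 5.14 and 5.21 TPM at 7 d. Juvenile hormone epoxide hydrolase 2-like (gene1998), which breaks the hormone down, was at 90.8, 128, 43.4 and 126 TPM and 173, 203, 197 and 176 TPM.

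At an unadjusted limma p under 0.05, 10 of 57 genes of lipid synthesis and storage stood above 0 and 19 below, against 5907 of all 17097 genes tested in either direction. None of the 57 rose, and 4 fell (7.02%, against 1.88% of all genes tested). They included an acyl-CoA desaturase (gene3132), at 884, 140.2, 1333 and 125 TPM at 3 d and 61.4, 34.1, 34.1 and 49.2 TPM at 7 d, and the fatty acid elongases gene7176, at 85.7, 20.96, 139 and 19.2 TPM and 2.53, 3.05, 2.34 and 4.65 TPM, and gene6991, at 42.01 to 184 TPM and 6.28 to 14.5 TPM. All 3 were higher in the 3-d-old replicates 1 and 3 than in 2 and 4. Of 72 nutrient transporters 3 rose (4.17%, against 1.36%), among them a Tret1-like trehalose transporter (gene4835), a carrier of the blood sugar of insects, from 0.63, 0.24, 0 and 0.22 TPM to 48.95, 58.7, 74.1 and 60.6 TPM. The others were a neutral and basic amino acid transporter-like gene (gene7810), at 1.44, 3.35, 1.97 and 4.25 TPM and 11.9, 45.8, 29.9 and 11.9 TPM, and a proton-coupled amino acid transporter 1-like gene (gene6872), at 0.74, 1.67, 0 and 1.79 TPM and 3.06, 16.4, 7.33 and 6.35 TPM, whose call was lost without replicate 3 of the 3-d-old larvae or replicate 2 of the 7-d-old larvae. Outside that list an organic cation transporter-like gene (gene2189) was at 0.02 to 0.09 TPM at 3 d and rose to 38.1, 85.8, 97.3 and 53.8 TPM. Of 89 cytochrome P450 genes outside hormone synthesis 4 rose and 2 fell (4.49% and 2.25%, against 1.36% and 1.88%), and P450 304a1 (gene7152) rose from 55.2, 12.7, 44.3 and 29.2 TPM to 316, 495, 529 and 296 TPM. P450 4aa1 (gene10245) rose from 4.66, 6.54, 2.27 and 7.46 TPM to 25.5, 55.5, 45.5 and 39.6 TPM, and P450 6a2-like (gene12871), highest in 3-d-old replicates 2 and 4, fell from 10.7, 36.9, 4.18 and 57.1 TPM to 1.95, 1.23, 2.15 and 1.97 TPM. Of 55 glutathione and UDP-sugar transferases, enzymes that couple foreign compounds, 2 rose and 3 fell (3.64% and 5.45%), the last being the glutathione S-transferases gene5872, gene5868 and gene1269, with 44.5, 86.3, 51.9 and 97.2 TPM, 24.6, 12.01, 38.2 and 16.7 TPM and 106, 52.8, 156 and 37.7 TPM at 3 d and at most 31.3 TPM at 7 d. The call of gene1269 was lost without replicate 3 of the 3-d-old larvae or replicate 2 of the 7-d-old larvae. UDP-glucuronosyltransferase 2B15-like (gene11814) rose from 0, 1.11, 0 and 0.49 TPM to 5.71, 20.9, 17.7 and 8.08 TPM.

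Odorant-binding proteins, carriers of small molecules that also occur outside the antennae, gave 2 genes that rose and 1 that fell of 36 (5.56% and 2.78%, against 1.36% and 1.88% of all genes tested). General odorant-binding protein 99a (gene7166) rose from 2.73, 15.8, 0.34 and 0.69 TPM to 174, 112, 30.1 and 292 TPM and stood at 2962 ± 607 TPM (SD, n = 4) in 1-d-old pupae, and 99a-like (gene7161) rose from 852, 1131, 606 and 1089 TPM to 3905, 3277, 4024 and 3335 TPM. The member that fell, 56d-like (gene4967), was at 17.8, 14.96, 7.17 and 24.9 TPM at 3 d and 2.71, 2.00, 2.71 and 2.93 TPM at 7 d, and lost its call without replicate 4 of the 3-d-old larvae. The call of gene7161, with a log2 fold change of 2.02 ± 0.18 (SE), was lost without any one of 4 libraries, replicates 1 and 3 of either age. Heat shock protein 23-like genes gene1554 and gene1555 were the only 2 of 31 heat shock proteins called, both higher (6.45%, against 1.36% of all genes tested). They stood at 37.4, 43.9, 119 and 47.3 TPM and 30.7, 42.03, 108 and 28.4 TPM at 3 d and 408, 111, 276 and 205 TPM and 281, 112, 219 and 184 TPM at 7 d. With log2 fold changes of 2.01 ± 0.47 and 2.05 ± 0.46 (SE) both were near the limit, and both lost the call without replicate 1 or 4 of the 3-d-old larvae or without replicate 1 or 3 of the 7-d-old larvae, and gene1554 also without replicate 2 of the 3-d-old larvae. A pair of CD109 antigen genes, of a family of complement-like proteins and chosen here after their values were seen, also rose. They were at 19.4 to 28.1 TPM (gene7803) and 0 to 0.38 TPM (gene7804) at 3 d and at 132 to 182 TPM and 9.08 to 17.5 TPM at 7 d, and stood at 414 ± 117 and 281 ± 50.5 TPM in 1-d-old pupae.

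Of 40 egg and germ-line genes 1 rose and 1 fell, 2.5% each against 1.36% and 1.88% of all genes tested. Vitellogenin-3-like (gene7406), related to yolk proteins, rose from 2.5, 3.6, 0.62 and 4.51 TPM to 30.5, 65.3, 85.2 and 17.9 TPM. Vitelline membrane protein Vm26Ab (gene8462), a name from the fly egg covering, fell from 398, 0, 594 and 1.17 TPM to 1.68, 0.45, 2.57 and 0.54 TPM and stood at 260.4 ± 212 TPM (SD, n = 4) in 1-d-old larvae, and its call was lost without replicate 1 or 3 of the 3-d-old larvae. The related gene8035 and gene8464, not called, were also high in 3-d-old replicates 1 and 3, at 545, 0, 890.0 and 10.4 TPM and 1740.0, 160.4, 1055 and 303 TPM. Chorion genes, which mark the ovary at a later step, were at most 0.26 TPM in all 8 libraries.

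Lists for other tissues and processes held no called gene. These were chitin enzymes and chitin-binding proteins (37 tested), tanning and melanin genes (24), autophagy and apoptosis (43), muscle contractile proteins (45), insulin and growth signalling (30), blood cell and clotting genes (13), imaginal disc patterning (105), neuronal channels and receptors (103) and sperm and testis genes (52). At an unadjusted limma p under 0.05 they held 22, 14, 24, 17, 14, 6, 28, 38 and 5 genes in that order, against 5907 of all genes tested. Their median log2 fold changes lay between -0.21, for the chitin genes, and 0.09, for the muscle genes. Of 68 salivary glue and mucin genes 1 rose and 1 fell (1.47% each, near the 1.36% and 1.88% of all genes tested). Integumentary mucin C.1-like gene11933 rose from 6.93, 27.8, 1.64 and 30.6 TPM to 41.9, 78.5, 59.5 and 44.2 TPM, a call lost without replicate 3 of the 3-d-old larvae. Salivary glue protein Sgs-5-like gene11839 fell from 21.4, 48.9, 10.4 and 47.1 TPM to 5.13, 4.35, 1.48 and 9.04 TPM. Of 52 urate and Malpighian tubule enzymes 1 rose (1.92%, against 1.36% of all genes tested) and none fell. At an unadjusted limma p under 0.05, 12 of the 52 stood above 0 and 20 below.

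The 7-d-old pools also differed in part of the genes that rose. Replicates 2 and 3 both exceeded replicates 1 and 4 for 139 of the 232 genes (59.9%), against 27.0% of all genes tested, and by more than 10 times for 20 genes (8.62%, against 1.06%). Replicate 2 was of the longer and replicate 3 of the shorter read class, and the part of read length in the split was not tested. An acidic phospholipase A2 PA4-like gene (gene13680) was among these, with 0.2 to 0.71 TPM at 3 d and 11.5, 12768, 4326 and 43.5 TPM in the 7-d-old replicates 1 to 4. A shematrin-like gene (gene11947), named for a shell protein and chosen after its values were seen, was listed at 0 TPM in all 3-d-old libraries and at 7.12, 1419, 825 and 65.6 TPM in the 7-d-old ones. A kunitz-type serine protease inhibitor (gene9883), also listed at 0 TPM in all 3-d-old libraries, was at 0, 128, 4.73 and 0 TPM, and its call was lost without replicate 2. The prion-like gene9513 rose in every pool, from 0, 0, 1.97 and 0.42 TPM to 371, 2639, 1992 and 887 TPM. When only the 2 full-length libraries of 7-d-old larvae were used, 258 genes rose and 324 fell, 217 and 304 of them shared with the counts above.

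The same genes were compared between 1-d-old larvae and 1-d-old pupae, libraries outside the contrast that chose the genes but within the same filter and the same estimate of the spread. Of the 321 genes that fell between 3 and 7 d, 283 (88.2%) were also lower in 1-d-old pupae than in 1-d-old larvae by the same limits and 2 were higher, against 7.14% lower and 9.73% higher among all genes tested. The median log2 fold change was -5.32 in the set and 0.31 in all genes. Of the 232 genes that rose, 134 (57.8%) were higher in the pupae and 16 lower, with a median of 2.78. With median-of-ratios scaling, which takes the median of all genes to 0.00, the counts were 291 lower and 2 higher of the 321, and 118 higher and 22 lower of the 232. Among the 11 stages outside the comparison, 166 of the genes that fell (51.7%, against 5.81% of all genes tested) had their highest mean in 1-d-old larvae and 66 (20.6%, against 11.7%) in eggs. Of the genes that rose, 81 (34.9%, against 16.9%) were highest in 1-d-old pupae and 35 (15.1%, against 3.81%) in 5-d-old males.

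Newly assembled genes made up 20 of the 232 genes that rose (8.62%) and 33 of the 321 that fell (10.3%), against 23.9% of the genes tested. The genes of both sets were short, with median lengths of 1075 and 905 nt against 1404 nt. The spread of log2 levels between pools, as the median SD over genes, was 2.43 at 3 d and 0.30 at 7 d for the genes that fell, 0.63 and 0.63 for those that rose, and 0.20 and 0.17 over all genes tested.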

How the data were processed

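Per the labels and the study's methods, messenger RNA was selected by its poly(A) tail from total RNA of whole animals and sequenced in paired ends. Reads were trimmed with SeqPrep and Sickle. The authors aligned them with HISAT2 2.1.0, kept unique matches, assembled new genes with StringTie and computed TPM with RSEM 1.3.1. The genome build is not given in the sources used here. The deposited table holds TPM for 18241 genes in 52 libraries, with the same total in each library and no further scaling. Depth is not in the table. DESeq2, the authors' test on counts, was not run, since no counts were used here.

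Values of log2(TPM + 1) were fitted with limma 3.58.1 in R 4.3.3, with 1 mean per stage over all 52 libraries, a variance trend and robust moderation, for the 17097 genes with 4 or more libraries above 0.1 TPM. The Benjamini-Hochberg adjustment ran over all of these genes, and the limits for a call were an adjusted p of 0.05 and a log2 fold change of 2 in either direction. The p-values rest on 4 pools per age, which the labels call biological replicates. The comparison of 1-d-old pupae with 1-d-old larvae came from the same fit.

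The gene lists (34, matched by product name) and the members were chosen with earlier results of these data known. Named genes were taken by rule: the 12 rising and 12 falling genes of largest change with an informative product, at least 10 TPM and no overlap, with 3 of each kind without such a product, the 3 most abundant called members of each list in each direction, all storage and hormone genes tested and the 5 most abundant genes of each age. The text names part of them. Members of neighbouring runs, further maltases, beta-galactosidase, phospholipase A1-like, the vitelline membrane relatives, shematrin-like and CD109 genes were named after their values were seen. Of the genes 11472 matched a RefSeq symbol, and gene order was taken from RefSeq's idZeuCucr1.2 annotation. No sequence was used.

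On data simulated for this comparison, 47 of 50 genes given a log2 change of 2.5 and 47 of 50 given -2.5 were called, 50 of 50 given 4, 2 of 50 given 1.5, and 2 of 16897 unchanged genes. The simulation gave each gene independent noise of the same SD in every stage. In the data the genes that fell had a median SD of 2.43 at 3 d and 0.30 at 7 d, so these rates do not describe genes split between pools. Alternatives changed the pseudocount, the filter, the scaling, the threshold, the libraries in the fit, the moderation and a block for replicate number. Python 3.11.15, pandas 2.3.3, numpy 2.4.6 and matplotlib 3.10.9 were used for summaries and figures.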

Additional observations from a re-analysis of the deposited data

Results flagged for a closer look

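Among 236 groups of 4 libraries, for 113 named genes and the summed lists, 17 held a library far from the other 3. Chance flags about 1 in 20 groups.

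Among the 3-d-old larvae, replicate 1 stood apart in 5 genes. It was highest for larval cuticle protein 2-like gene7014 (700.8 TPM, the others at most 15.8 TPM) and gene7013 (314.6 TPM, the others at most 23.1 TPM), the ecdysone receptor gene4707 (11.2 TPM, the others at most 6.30 TPM) and attacin-A-like gene5684 (1.71 TPM, the others at most 0.23 TPM), and lowest for lysozyme gene5004 (6403 TPM, the others at least 16464 TPM). Replicate 2 was highest for odorant-binding protein gene7166 (15.8 TPM, the others at most 2.73 TPM). Replicate 3 was lowest for larval cuticle protein gene7012 (64.7 TPM, the others at least 280.2 TPM) and gene812 (2489 TPM, the others at least 3923 TPM). It was highest for gene817 (9647 TPM, the others at most 1411 TPM) and heat shock protein gene1554 (119 TPM, the others at most 47.3 TPM).

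Among the 7-d-old larvae, replicate 2 was highest for fat-body protein 1 gene12529 (251 TPM, the others at most 5.53 TPM), the kunitz inhibitor gene9883 (128 TPM, the others at most 4.73 TPM) and Krüppel homolog 1 gene12603 (9.21 TPM, the others at most 5.21 TPM), and lowest for larval cuticle protein 8-like gene828 (24.2 TPM, the others at least 81.6 TPM). Replicate 1 was the only one above 0 for gene819 (0.42 TPM). Replicate 3 was highest for phospholipase gene9127 (48.1 TPM, the others at most 15.4 TPM), and replicate 4 lowest for ecdysone 20-monooxygenase gene117 (13.6 TPM, the others at least 19.5 TPM).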

How the results depend on the processing

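Against 232 genes higher and 321 lower, a pseudocount of 0.1 gave 400 and 507, and a fold threshold of 1 gave 633 and 883. The fit on the 8 libraries called 189 and 140 of 12649 genes tested, with quality weights 195 and 202, and with median-of-ratios scaling 197 and 140. Without replicate 3 of the 3-d-old larvae that fit called 178 and 163 genes of 12381. The last 2 settings, the block on the 8 libraries and those with 2 pools of 3-d-old larvae were chosen after the data were seen. Rises made up 42.0% of all calls in the fit over 52 libraries and 57.4% in that on 8, 49.1% with quality weights and 50.3% with the 3-d-old replicates 2 and 4 alone. Leaving out 1 replicate gave 204 to 262 higher and 283 to 372 lower. No called gene of either set was called in the opposite direction under any alternative.

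A replicate block left the counts at 232 and 321 in the fit over 52 libraries and gave 146 and 96 in the fit on 8. Deviations of libraries with the same number correlated at 0.054, 0.026, 0.030 and -0.018, and those of unlike numbers between -0.108 and 0.074. Whether libraries of the same number shared a batch was not tested.

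For 1-d-old pupae against 1-d-old larvae, 1664 genes were higher and 1221 lower. A pseudocount of 0.1 gave 2721 higher and median-of-ratios scaling 873 higher. That scaling put 27.6% of the genes that rose highest in 1-d-old pupae, against 11.3% of all genes tested. It put 60.7% of those that fell highest in 1-d-old larvae, against 12.1%. With TPM as deposited the shares of all genes tested were 16.9% and 5.81%.

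Of 96 called genes named, leaving out 1 library ended 2 to 9 calls, and the fit on the 8 libraries ended 22. Of 2201 values of these genes over all alternatives, 1990 kept direction and call, 208 lost the call and 3 turned.

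For cuticular protein 47Eg-like gene9500 the log2 fold change turned to -0.0040 with quality weights and -0.20 with replicates 2 and 4 only. With replicates 1 and 3 only, alpha-amylase gene4783 was at 0.18 and maltase gene7006 at 0.50. With replicates 2 and 4 only, gene8462 was at 0.55, gene8464 at 0.062 and gene8035 at 1.37 (0.31 with quality weights on the 8 libraries). The causes were not tested. Without counts, the precision of low values is unknown.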
